A study of Homo sapiens with 21 samples.

Results

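Annexins and S100 proteins were followed at the RNA level in the human neuroblastoma line NLF and in derivatives of it in which the gene YAP1 was targeted. The 10 genes described are the annexins ANXA1, ANXA2, ANXA4, ANXA5 and ANXA6 and the S100 genes S100A4, S100A6, S100A10, S100A11 and S100A13, out of 57820 genes in the expression table. They were picked by symbol with earlier results of these data in view, in which S100A10 and ANXA1 were among the lowest genes of both knockout lines grown without drug. Comparisons of those values between lines without drug therefore stand here as a description with no test. Other tests of S100A10 and ANXA1 are not independent of that choice. Of the 10 genes, 8 reached an FPKM (fragments scaled by transcript length and library size) of at least 1 in at least 3 libraries and could be tested. ANXA2 and S100A6 did not.

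The 21 libraries form 7 groups of 3. YAPKO2 and YAPKO1 are knockout lines, each made with its own single guide RNA against YAP1 and Cas9. sgCON carries Cas9 with a scrambled guide, and the parental NLF cells carry neither. YAPKO2, YAPKO1 and sgCON each received trametinib, which inhibits MEK, at a dose of 20 nM over 72 h, or DMSO as the solvent control. The parental cells are labelled as given DMSO. The sample labels put DMSO at 0.01%, and the text for the series puts it at 0.1%. Whether a line was a single clone or a pool of edited cells is not given in the sources used here, so each line stands for itself. The labels do not describe the replicates as separate cultures. The p-values therefore measure only the spread between these libraries, which may be technical.

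Annexins bind acidic phospholipids on the inner face of membranes when calcium rises, and they take part in membrane repair, vesicle traffic and the anchoring of actin. S100 proteins are small calcium-binding proteins that act as dimers and bind target proteins, annexins among them. The best known pair is S100A10 with annexin A2, which sits below the plasma membrane, helps to place ion channels there and binds plasminogen and its activator at the cell surface. S100A11 binds the amino-terminal end of annexin A1 in a similar way. YAP1 is a coactivator of transcription, held back by Hippo signalling, that works through the TEAD family of DNA-binding proteins.

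The promoters of 3 genes are shown because ANXA1 and S100A10 carried the largest changes and ANXA6 changed in the other direction. Each runs from 250 bases before to 50 bases after the transcription start in RefSeq (GRCh38.p14), 5′ to 3′ on the strand of the gene. Capitals mark every CG dinucleotide and the TATA motif TATAAA. The windows are chr9:73151615-73151914 on the plus strand for ANXA1, chr1:151993810-151994109 on the minus strand for S100A10 and chr5:151157730-151158029 on the minus strand for ANXA6.
ANXA1: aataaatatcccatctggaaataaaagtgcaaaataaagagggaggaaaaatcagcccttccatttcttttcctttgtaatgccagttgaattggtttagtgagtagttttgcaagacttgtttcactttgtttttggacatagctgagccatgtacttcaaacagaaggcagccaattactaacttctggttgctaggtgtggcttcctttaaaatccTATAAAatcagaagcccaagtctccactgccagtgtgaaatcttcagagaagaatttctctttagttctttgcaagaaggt
S100A10: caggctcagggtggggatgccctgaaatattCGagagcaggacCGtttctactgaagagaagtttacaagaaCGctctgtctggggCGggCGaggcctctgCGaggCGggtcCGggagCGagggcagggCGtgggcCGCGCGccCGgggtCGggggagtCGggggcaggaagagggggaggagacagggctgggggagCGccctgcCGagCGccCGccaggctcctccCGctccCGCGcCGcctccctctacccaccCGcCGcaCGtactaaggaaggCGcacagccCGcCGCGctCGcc
ANXA6: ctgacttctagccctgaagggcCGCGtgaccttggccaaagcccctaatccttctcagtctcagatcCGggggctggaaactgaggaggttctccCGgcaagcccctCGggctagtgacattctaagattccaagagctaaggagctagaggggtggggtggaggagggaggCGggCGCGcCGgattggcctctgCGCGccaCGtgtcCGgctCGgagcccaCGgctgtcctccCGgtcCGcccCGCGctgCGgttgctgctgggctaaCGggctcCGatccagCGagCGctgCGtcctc

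The ANXA1 and S100A10 windows differ in base composition. The ANXA1 window had 0 CG dinucleotides and a GC content of 37.7%, with TATAAA 31 bases before the start. The S100A10 window had 32 CG dinucleotides, a GC content of 71.7% and no TATAAA. Across 27305 promoters the median was 14 CG dinucleotides and 58.3% GC, and 12% of promoters held TATAAA on either strand. The ANXA6 window had 25 CG dinucleotides, a GC content of 66.3% and the E-box CACGTG 50 bases before the start, a motif held by 7.43% of promoters. The letters GGAATG, in which TEAD proteins are known to bind, occurred in 0 of the 10 windows and in 14% of all promoters on either strand. The AP-1 motif TGANTCA occurred in 1 of the 10, ANXA2, and in 7.76% of all promoters. The ETS motif CCGGAAG also occurred in 1 of the 10, ANXA4, and in 10.7% of all promoters. These counts describe short windows and say nothing about binding there or elsewhere.

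YAP1 RNA was lower in both knockout lines, and more so in YAPKO2. Its level was 2.73, 1.16 and 3.69 FPKM in YAPKO2 with trametinib, 12.5, 11.9 and 10.1 in YAPKO1 with trametinib, and 22.7, 24.5 and 22.7 in sgCON with trametinib. In DMSO it averaged 2.89 ± 0.250 FPKM in YAPKO2 and 11.7 ± 2.30 in YAPKO1, against 25.6 ± 1.85 in sgCON (SD, n = 3 each). The 3 lines did not overlap in either medium. Guide edits need not remove the RNA, so these levels do not measure the protein.

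The libraries hold other differences that run with the groups. GC-rich genes were represented more strongly in some libraries than in others, with a trend of -0.248 to 1.32 (log2) in YAPKO2 libraries, -0.405 to 0.666 in YAPKO1, -0.478 to -0.122 in sgCON and -0.595 to -0.548 in parental cells. Of 7 markers of adrenergic neuroblastoma 5 were well expressed in all libraries, while DBH and TH were low. With trametinib the 7 summed to 384 to 518 FPKM in YAPKO2 and 313 to 357 in YAPKO1, against 241 to 269 in sgCON. There 4 and 3 of 6 tested rose over sgCON and 0 fell. Of all genes 17.7% rose and 18.6% fell in YAPKO2, and 7.81% rose and 7.18% fell in YAPKO1. In DMSO 2 of the 6 rose over sgCON and 0 fell in YAPKO2, against 14.1% and 13.1% of all genes. In YAPKO1 with DMSO 3 rose and 1 fell, against 6.18% and 5.81%. Epithelial markers summed to at most 0.218 FPKM and endothelial markers to at most 0.496. Schwann cell markers summed to 1.39 to 4.27 FPKM. Blood cell markers summed to at most 2.46 FPKM in the made lines and to 9.73 to 13.1 in parental cells, almost all of it CD68. The fibroblast list, in which LUM and COL3A1 are abundant in this line, summed to 197 to 343 FPKM in YAPKO2 and 182 to 263 in YAPKO1, against 455 to 582 in sgCON, all with trametinib. In DMSO it summed to 376 to 607 FPKM in YAPKO2, 216 to 490 in YAPKO1, 435 to 521 in sgCON and 833 to 903 in parental cells. Of its 5 genes 2 rose and 3 fell over sgCON with trametinib in YAPKO2, and 1 rose and 4 fell in YAPKO1. The shares of all genes are those given above for trametinib. The part of either list in the results below was not tested.

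All 10 genes together summed to 501 ± 1.00 FPKM in sgCON with DMSO and to 640 ± 59.4 in parental cells (SD, n = 3 each), and the abundant members were S100A4, S100A10, ANXA6, ANXA5, S100A11, S100A13 and ANXA1. FPKM are per length, so these levels can be set side by side between genes. ANXA2, the usual partner of S100A10, was low throughout, at 0 to 0.264 FPKM in YAPKO2 and 0 to 0.240 in YAPKO1, against 0.229 to 0.499 in sgCON, all with trametinib. It was 0.257 to 0.520 FPKM in YAPKO2, 0.213 to 0.853 in YAPKO1 and 0.668 to 0.982 in sgCON in DMSO, and 0.759 to 2.20 in parental cells. S100A6, which encodes calcyclin, was at 0 in 17 of 21 libraries and reached at most 0.312. None of 20 housekeeping genes was at 0 in any library. Near-identical ANXA2 copies ANXA2P1, ANXA2P2 and ANXA2P3 did not exceed 0.298 FPKM.

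**Figure D1:**
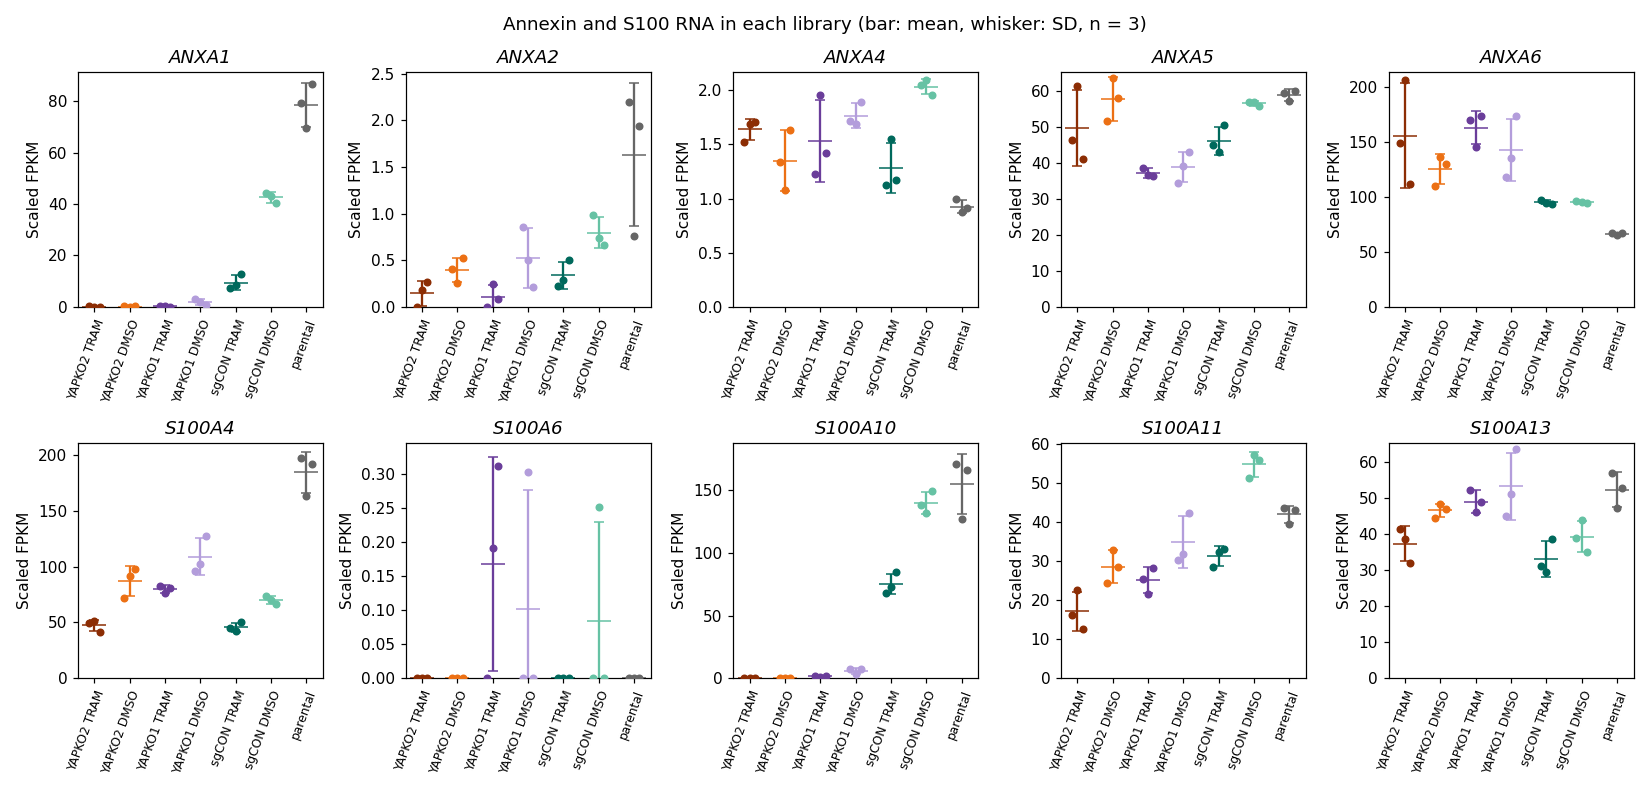
Scaled FPKM of the 10 genes in each of the 21 libraries, with the group mean (bar) and SD (whisker, n = 3, drawn from 0 where it would run below). ANXA1 and S100A10 lie near 0 in the knockout lines, at most 3.16 and 7.46 FPKM, while ANXA6 lies higher there than in sgCON and parental cells.

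The first question was whether the annexin and S100 genes differed between knockout and control cells under trametinib. S100A10 and ANXA1 were chosen on DMSO libraries, but the trametinib libraries come from the same lines. Low levels of both genes here are thus not independent of that choice, and their p-values carry this limit. S100A10 and ANXA1 were close to silent in both knockout lines, ANXA6 was higher in both, and S100A11 was lower in YAPKO2. In YAPKO1 3 of 8 genes rose and 2 fell, against 7.81% and 7.18% of all 16092 genes tested in the same directions. In YAPKO2 1 rose and 3 fell, against 17.7% and 18.6% of all genes. S100A10 and ANXA1, the chosen genes, make up the 2 falls in YAPKO1 and are among the 3 in YAPKO2. The counts of falls are therefore not those of an unselected set. Groups without overlap were common among all genes, at 40.8% for YAPKO2 and 41.2% for YAPKO1. The median change of the 8 genes was 0.07 (log2) in YAPKO2 and -0.06 in YAPKO1, with -0.02 and -0.00 for all genes, so the genes had no common direction.

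S100A10 had 0.206, 0 and 0 FPKM in YAPKO2 and 1.63, 0.634 and 1.71 in YAPKO1, against 68.1, 73.2 and 84.5 in sgCON. The 3 lines did not overlap, and the YAPKO1 mean was 1.76% of the sgCON mean. On the scale of log2(FPKM + 0.5), on which all changes are given and which understates those of low genes, S100A10 changed by -7.07 ± 0.29 (SE) in YAPKO2 and by -5.43 ± 0.29 in YAPKO1. The adjusted p was 1.09e-11 and 8.97e-10 (limma, Benjamini-Hochberg over all genes). The YAPKO2 libraries sit at the lower end of what FPKM can show, so the size of that fall depends on the pseudocount.

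ANXA1 encodes annexin A1, known as a mediator of glucocorticoid action on inflammation and as a substrate of growth factor receptor kinases. Its level was 0.157, 0 and 0 FPKM in YAPKO2 and 0.285, 0.163 and 0 in YAPKO1, against 7.23, 8.37 and 12.6 in sgCON. Both knockout lines lay below the lowest sgCON library and overlapped each other. ANXA1 changed by -4.14 ± 0.29 in YAPKO2 and by -3.92 ± 0.29 in YAPKO1 (limma adjusted p = 1.20e-08 and 7.54e-08).

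ANXA6, a large annexin that binds cholesterol-rich membranes and recruits a GTPase-activating protein to RAS, went the other way. It had 149, 207 and 111 FPKM in YAPKO2 and 170.2, 145 and 173 in YAPKO1, against 97.2, 94.4 and 93.7 in sgCON. Every knockout library exceeded every sgCON library, although the YAPKO2 libraries spread widely. The rise was 0.66 ± 0.17 in YAPKO2 and 0.77 ± 0.17 in YAPKO1 (limma adjusted p = 0.00532 and 0.00482). The YAPKO2 call was lost when only the libraries of those groups were fitted (limma adjusted p = 0.0963).

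ANXA6 also followed the GC trend of the libraries, with a Pearson r of 0.862 over 21 libraries that share lines and media. Its transcripts have a GC content of 54.2%. After a correction for transcript GC its rise was 0.50 in YAPKO2 and 0.65 in YAPKO1, still past the threshold in both. The 3 libraries of strongest trend were YAPKO2 replicates 1 and 2 with trametinib and YAPKO1 replicate 3 with DMSO. Without them the YAPKO2 value, which then rests on 1 library, was 0.23 and the call was lost (limma adjusted p = 0.194), while that of YAPKO1 was 0.77 and kept its call. This check was added after the data were seen. For ANXA1 r was -0.763 and for S100A10 -0.704. Their GC-corrected changes were -3.65 and -7.12 in YAPKO2 and -3.62 and -5.48 in YAPKO1.

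**Figure D2:**
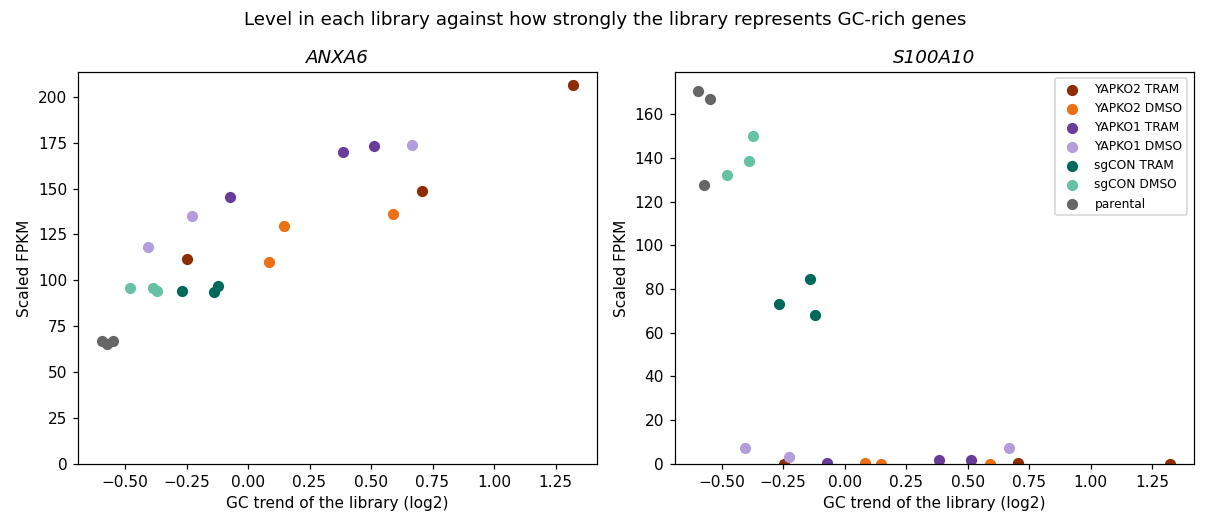
Scaled FPKM of ANXA6 and S100A10 in each library (vertical axes) against how strongly the library represents GC-rich genes (horizontal axes, log2), coloured by group. ANXA6 climbs with the trend across groups, from 65.6 to 207 FPKM, whereas S100A10 is at most 7.46 in the knockout libraries at any value of the trend.

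S100A11, whose protein pairs with annexin A1, had 16.1, 22.6 and 12.6 FPKM in YAPKO2 and 25.4, 21.5 and 28.2 in YAPKO1, against 28.4, 32.4 and 33.1 in sgCON. It fell by 0.89 ± 0.17 in YAPKO2 (limma adjusted p = 0.000756), where the groups did not overlap. In YAPKO1 the change was -0.32 ± 0.17 (limma adjusted p = 0.227), which does not show that the level was the same.

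S100A4, known as a metastasis-associated protein that binds non-muscle myosin, had 49.3, 50.7 and 41.4 FPKM in YAPKO2 and 82.9, 76.0 and 80.8 in YAPKO1, against 44.9, 41.9 and 50.03 in sgCON. It rose by 0.80 ± 0.13 in YAPKO1 (limma adjusted p = 0.000344), and the change in YAPKO2 was 0.05 ± 0.13. The YAPKO1 libraries lay above all others with trametinib.

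S100A13, which takes part in the release of fibroblast growth factor 1 without a signal peptide, had 41.5, 38.6 and 31.9 FPKM in YAPKO2 and 52.2, 46.0 and 48.8 in YAPKO1, against 31.0, 29.4 and 38.7 in sgCON. It rose by 0.57 ± 0.14 in YAPKO1 (limma adjusted p = 0.00891). Without sgCON replicate 2 the change was 0.49 and missed the threshold (limma adjusted p = 0.0521). In YAPKO2 it was 0.18 ± 0.14, below the threshold.

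ANXA5, the annexin known for binding phosphatidylserine on dying cells, and ANXA4, a low-expressed member known for binding membranes of secretory epithelia, did not pass the test in either line. ANXA5 had 46.4, 61.3 and 41.1 FPKM in YAPKO2 and 38.6, 36.5 and 36.2 in YAPKO1, against 44.8, 42.9 and 50.4 in sgCON. Its change was 0.09 in YAPKO2 and -0.30 in YAPKO1 (SE 0.12 in both), and YAPKO1 lay below sgCON in all 3 libraries. ANXA4 had 1.52 to 1.71 FPKM in YAPKO2 and 1.23 to 1.96 in YAPKO1, against 1.13 to 1.55 in sgCON. ANXA4 overlaps AAK1 on the opposite strand, so at such levels reads of the 2 genes may be mixed where strand was not used in counting.

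**Figure D3:**
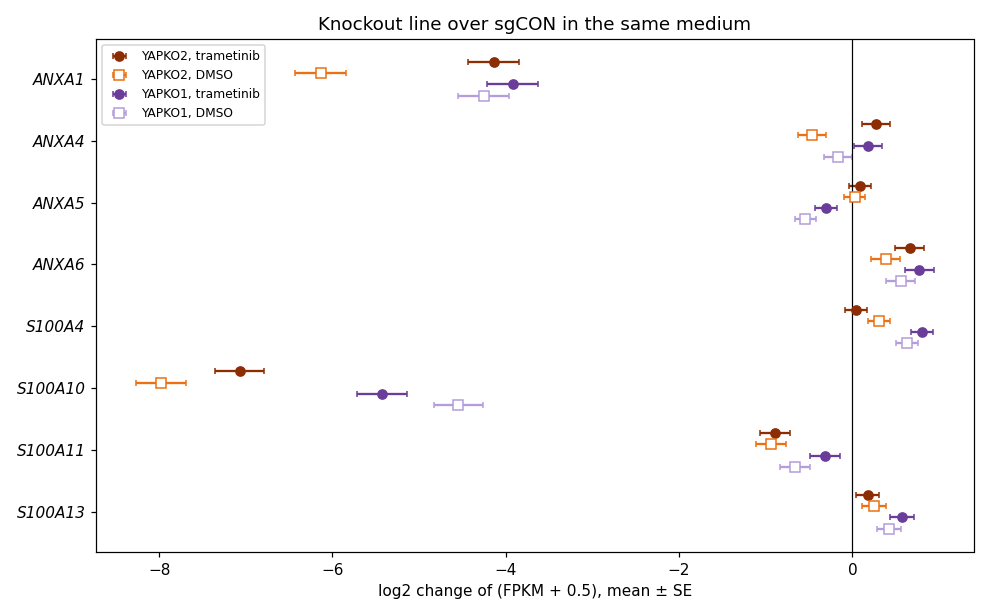
Change of the 8 tested genes in YAPKO2 and YAPKO1 over sgCON in the same medium, as log2(FPKM + 0.5) with SE from limma. Filled circles are trametinib and open squares DMSO, which is a description only. S100A10 and ANXA1 stand far to the left in both lines and both media, and ANXA6 lies to the right of 0 in all 4 comparisons.

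Without drug the same genes stood out, which is how they came to be chosen. S100A10 had 0.190, 0 and 0 FPKM in YAPKO2 and 7.32, 3.00 and 7.46 in YAPKO1, against 139, 132 and 149.9 in sgCON. ANXA1 had 0.190, 0 and 0.167 FPKM in YAPKO2 and 3.16, 1.97 and 0.760 in YAPKO1, against 44.3, 43.1 and 40.3 in sgCON. For both genes the 3 lines were fully apart. The mean of S100A10 in YAPKO1 was 4.23% of the sgCON mean and that of ANXA1 4.62%.

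The other genes differed less in DMSO. S100A11 had 24.3, 32.8 and 28.6 FPKM in YAPKO2 and 30.3, 31.9 and 42.4 in YAPKO1, against 51.2, 57.1 and 56.0 in sgCON, with no overlap of either knockout line with sgCON. ANXA6 had 109.8, 136 and 129.6 FPKM in YAPKO2 and 118, 135 and 173 in YAPKO1, against 96.1, 95.7 and 94.3 in sgCON, again with no overlap. S100A4 ranged over 71.5 to 97.6 FPKM in YAPKO2 and 96.3 to 128 in YAPKO1, against 66.5 to 73.4 in sgCON, and S100A13 over 44.5 to 48.2 and 45.0 to 63.4, against 35.1 to 43.8. YAPKO1 was above sgCON in all libraries for both genes, and so was YAPKO2 for S100A13. ANXA5 was 51.5 to 63.6 FPKM in YAPKO2, 34.4 to 42.9 in YAPKO1 and 55.8 to 56.9 in sgCON, so YAPKO1 stood apart. ANXA4 was 1.08 to 1.63 FPKM in YAPKO2, 1.69 to 1.89 in YAPKO1 and 1.95 to 2.10 in sgCON, and no sgCON library overlapped with either line.

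The groups did not overlap for 52.6% of all genes in YAPKO2 and 33.9% in YAPKO1, and nothing is read from the DMSO values of genes chosen on them. The largest changes were -7.98 ± 0.29 for S100A10 and -6.13 ± 0.29 for ANXA1 in YAPKO2, and -4.55 ± 0.29 and -4.26 ± 0.29 in YAPKO1. S100A11 was at -0.94 ± 0.17 in YAPKO2 and -0.66 ± 0.17 in YAPKO1.

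The S100A genes lie in a cluster on chromosome 1, so position could be set beside level. S100B, S100G, S100P and S100Z lie on other chromosomes. In GRCh38 the order runs S100A10, S100A11, S100A9, S100A12, S100A8, S100A7A, S100A7, S100A6, S100A5, S100A4, S100A3, S100A2, S100A16, S100A14, S100A13 and S100A1. Of these 16 genes, S100A10 lay at the edge of the cluster and its immediate neighbour S100A11 changed far less in the knockout lines. S100A10 and S100A11 start at 151982915 and 152032506, apart from the next gene, S100A9, at 153357854. S100A7, S100A7A, S100A8, S100A9 and S100A12, genes known from keratinocytes and myeloid cells, were at 0 in all 21 libraries. S100A4 and S100A13, farther along, rose in YAPKO1 under trametinib, where S100A10 fell. Reads of S100A3 and S100A4, which overlap on the same strand, may be split between them, and S100A3 did not exceed 2.02 FPKM.

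**Figure D4:**
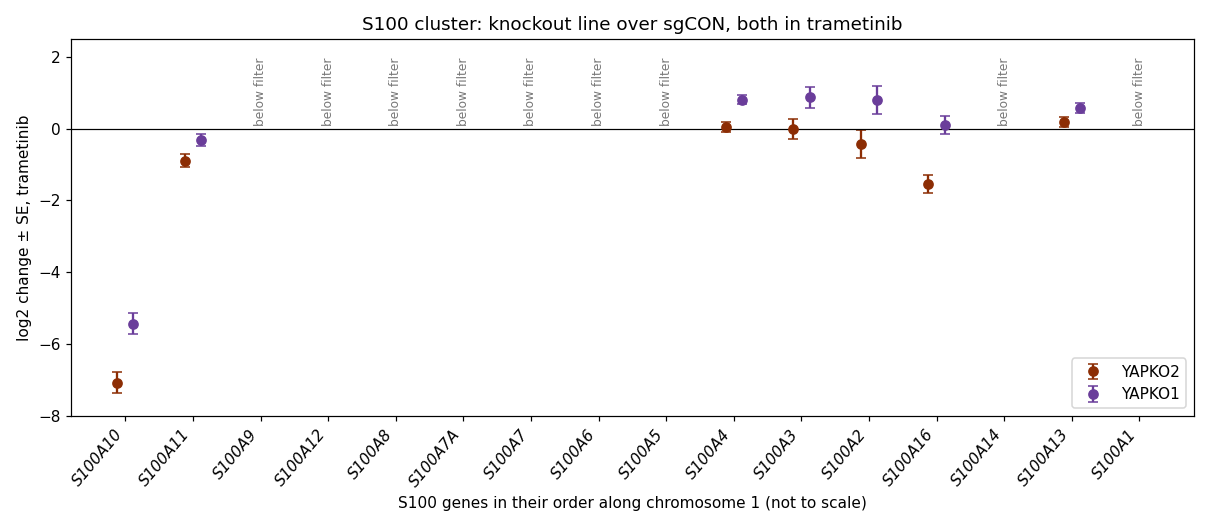
Change of the S100A genes in YAPKO2 and YAPKO1 over sgCON, both with trametinib (log2 with SE), in their order along chromosome 1. Genes that were too low to test are marked; S100A10 changed by -7.07 and -5.43 while its neighbour S100A11 changed by -0.89 and -0.32.

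The second question was how trametinib itself changed these genes. In sgCON it lowered ANXA1, S100A4 and S100A11. The 3 falls stood against 2.94% of all genes that fell. In YAPKO1 3 of 8 fell, against 3.88% of all genes, and in YAPKO2 2 of 8, against 11.5%. None of the 8 rose in any line at the adjusted threshold of limma, where 8.59% (YAPKO2), 3.97% (YAPKO1) and 2.28% (sgCON) of all genes did. At an unadjusted p under 0.05 the count was also 0 of 8 in each line. The 2 media did not overlap for 28.8% of all genes in YAPKO2, 21.3% in YAPKO1 and 36.6% in sgCON. Each of these comparisons uses DMSO libraries that also served in choosing the genes. The median change of the 8 genes was -0.20 in YAPKO2, -0.30 in YAPKO1 and -0.56 in sgCON, with -0.01, -0.01 and -0.00 for all genes.

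ANXA1 responded most. In sgCON it had 7.23, 8.37 and 12.6 FPKM with trametinib and 44.3, 43.1 and 40.3 with DMSO, a mean of 22.1% of the DMSO mean. The change was -2.16 ± 0.29 (limma adjusted p = 0.000192), with all 3 treated libraries below all 3 controls. In YAPKO1 the drug lowered what was left, to 0.285, 0.163 and 0 FPKM against 3.16, 1.97 and 0.760 with DMSO, a change of -1.82 ± 0.29 (limma adjusted p = 0.000710). In YAPKO2 levels were at 0 to 0.157 FPKM with trametinib and 0 to 0.190 with DMSO, where no fall could be measured.

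S100A10 was lower with trametinib in sgCON without passing the threshold. It had 68.1, 73.2 and 84.5 FPKM with trametinib and 139, 132 and 149.9 with DMSO, so the groups did not overlap and the treated mean was 53.7% of the control mean. The change was -0.90 ± 0.29 (limma adjusted p = 0.0858). S100A10 did pass in 6 of 17 alternative fits, with changes of -0.98 to -0.83 without 1 library and -0.90 to -0.82 otherwise. In YAPKO1 it fell by 1.78 ± 0.29 (limma adjusted p = 0.000675), to 1.63, 0.634 and 1.71 FPKM with trametinib against 7.32, 3.00 and 7.46 with DMSO. The YAPKO1 calls of ANXA1 and S100A10 were lost when only the libraries of those groups were fitted (limma adjusted p = 0.121 and 0.127). Both calls also rest on YAPKO1 DMSO libraries that served in choosing these genes, so their p-values carry that limit.

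S100A4 fell with the drug in every line. It had 49.3, 50.7 and 41.4 FPKM with trametinib and 71.5, 91.8 and 97.6 with DMSO in YAPKO2, a fall of 0.87 ± 0.13 (limma adjusted p = 0.000119). In sgCON the levels were 44.9, 41.9 and 50.03 FPKM with trametinib and 73.4, 69.6 and 66.5 with DMSO, a fall of 0.61 ± 0.13 (limma adjusted p = 0.00805). In YAPKO1 the levels were 82.9, 76.0 and 80.8 FPKM against 96.3, 102 and 128, a change of -0.43 ± 0.13 at the threshold (limma adjusted p = 0.0465). No treated library reached a control library of its line. This YAPKO1 call did not survive leaving out 5 of the 6 libraries in turn, with a change of -0.31 (limma adjusted p = 0.134) without DMSO replicate 3.

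S100A11 fell in sgCON, to 28.4, 32.4 and 33.1 FPKM with trametinib against 51.2, 57.1 and 56.0 with DMSO, by 0.80 ± 0.17 (limma adjusted p = 0.0101). Without sgCON trametinib replicate 1 the change was -0.73 and the call was lost (limma adjusted p = 0.0578). In YAPKO2 it fell by 0.75 ± 0.17 (limma adjusted p = 0.00512), and this was lost when only those groups were fitted (limma adjusted p = 0.137). In YAPKO1 it was lower in all 3 treated libraries, at -0.46 ± 0.17, and did not pass (limma adjusted p = 0.123).

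The remaining genes did not pass the test for the drug in any line. ANXA6 was at 93.7 to 97.2 FPKM with trametinib and 94.3 to 96.1 with DMSO in sgCON, a change of -0.00 ± 0.17. ANXA5 changed by -0.23 in YAPKO2, -0.06 in YAPKO1 and -0.30 in sgCON, each with an SE of 0.12. ANXA4 was lower with trametinib in sgCON, at 1.13, 1.55 and 1.17 FPKM against 2.05, 2.10 and 1.95, without passing (-0.52 ± 0.16, limma adjusted p = 0.0767). S100A13 changed by -0.32 in YAPKO2, -0.10 in YAPKO1 and -0.25 in sgCON, each with an SE of 0.14.

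**Figure D5:**
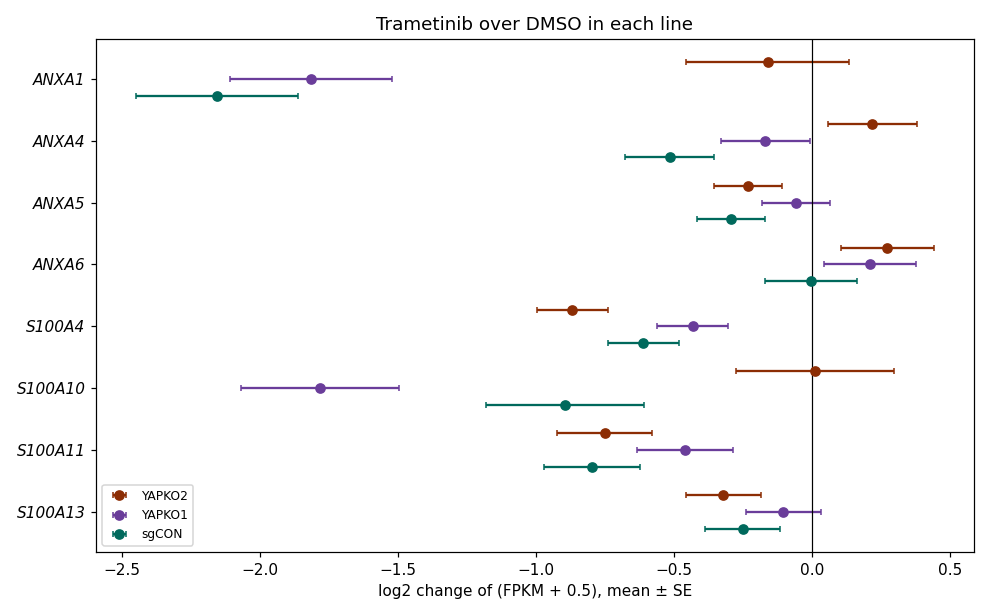
Change of the 8 tested genes with trametinib over DMSO in YAPKO2, YAPKO1 and sgCON, as log2(FPKM + 0.5) with SE from limma. S100A4 and S100A11 lie left of 0 in all 3 lines, and ANXA1 lies near -2 in sgCON and YAPKO1 and near 0 in YAPKO2.

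Whether the drug response differed between a knockout line and sgCON was tested as a difference of differences. Both tests use the same sgCON libraries, and DMSO libraries that served in choosing the genes. For YAPKO1 0 of 8 genes passed at the adjusted threshold by limma, beside 0.249% of all genes, and 1, S100A10, had an unadjusted p under 0.05. The differences were 0.34 ± 0.42 for ANXA1, -0.89 ± 0.40 for S100A10 and 0.18 ± 0.18 for S100A4. The direction for ANXA1 is not settled, since it was -0.85 with a pseudocount of 0.1 and -0.08 without YAPKO1 DMSO replicate 3. For YAPKO2 1 gene passed, ANXA1, beside 4.83% of all genes. Its difference was 1.99 ± 0.42 (limma adjusted p = 0.00927), from levels at 0 to 0.190 FPKM in all YAPKO2 libraries. No fall could be measured at such levels, so the difference restates the fall in sgCON. With a pseudocount of 0.1 it was 1.68 and did not pass (limma adjusted p = 0.282).

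The third question was how the 2 knockout lines differed from each other. In trametinib YAPKO2 was lower than YAPKO1 in S100A10, S100A4 and S100A11 and higher in ANXA5. These were 1 higher and 3 lower of 8 genes, against 6.48% and 7.69% of all genes, and 22.7% of all genes had groups without overlap. The S100A10 difference was -1.64 ± 0.29 (limma adjusted p = 0.000752) and that of S100A4 -0.76 ± 0.13 (limma adjusted p = 0.000577), both without overlap. The S100A11 difference was -0.57 ± 0.17 (limma adjusted p = 0.0364), with overlapping libraries, and that of ANXA5 0.39 ± 0.12 (limma adjusted p = 0.0410). The S100A11 call was lost without replicate 1 or 3 of either line, and the ANXA5 call without YAPKO2 replicate 1 or 2 or any 1 YAPKO1 replicate. The S100A10 call was lost when only those groups were fitted. YAPKO2 lay at 0 to 0.206 FPKM of S100A10 with trametinib, so the size of that difference depends on the pseudocount. S100A10 was chosen for its low DMSO levels in both lines, so its p-value is not independent of that choice.

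In DMSO YAPKO2 was below YAPKO1 in S100A10 and ANXA1 and above it in ANXA5, 1 higher and 2 lower of 8, against 3.73% and 3.23% of all genes, and 20.5% of all genes had groups without overlap. The 2 lower genes, S100A10 and ANXA1, were chosen on these DMSO values of the knockout lines, so their differences of -3.43 and -1.88 are given with no test. The difference of ANXA5 was 0.57 ± 0.12 (limma adjusted p = 0.00716). For all 3 genes the lines did not overlap. YAP1 itself was lower in YAPKO2 by 1.83 ± 0.23 (limma adjusted p = 4.67e-05). With only those groups fitted the call of ANXA5 was lost.

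The fourth question was what the control line had in common with the parental cells. sgCON was lower in S100A4 and S100A13 and higher in ANXA4 and ANXA6, 2 and 2 of 8 genes, against 7.99% of all genes higher and 7.87% lower, and 45.6% of all genes had groups without overlap. S100A4 had 73.4, 69.6 and 66.5 FPKM in sgCON and 197, 164 and 192 in parental cells, a change of -1.39 ± 0.13 (limma adjusted p = 1.23e-06). ANXA4 had 2.05, 2.10 and 1.95 FPKM in sgCON and 0.992, 0.875 and 0.912 in parental cells, a change of 0.83 ± 0.16 (limma adjusted p = 0.00173). Both were fully apart.

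ANXA6 had 96.1, 95.7 and 94.3 FPKM in sgCON and 66.7, 65.6 and 67.2 in parental cells, a rise of 0.52 ± 0.17 (limma adjusted p = 0.0441). S100A13 had 39, 43.8 and 35.1 FPKM in sgCON and 56.9, 47.2 and 52.8 in parental cells, a fall of 0.41 ± 0.14 (limma adjusted p = 0.0495). Leaving out any 1 of the 6 libraries ended the ANXA6 call, and any 1 but sgCON replicate 2 that of S100A13. ANXA1 was lower in sgCON, at 44.3, 43.1 and 40.3 FPKM against 79.4, 69.6 and 86.6 in parental cells, at -0.87 ± 0.29 (limma adjusted p = 0.0532). ANXA1 missed the threshold in the main fit and passed it in 7 of 17 alternative fits. The sgCON DMSO libraries also served in choosing ANXA1, so its p-value carries that limit. S100A10 overlapped, at 139, 132 and 149.9 FPKM in sgCON and 171, 128 and 167 in parental cells.

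S100A4 thus lay lower in every line made from NLF than in NLF itself. Against parental cells it was at -1.09 ± 0.13 in YAPKO2 (limma adjusted p = 5.35e-06) and -0.76 ± 0.13 in YAPKO1 (limma adjusted p = 0.000312), both in DMSO. S100A10 was at -8.11 in YAPKO2 and -4.68 in YAPKO1, and ANXA1 at -7.01 and -5.13. These are descriptions with no test, since the same DMSO libraries of the knockout lines chose both genes. ANXA6 rose by 0.90 ± 0.17 in YAPKO2 and 1.07 ± 0.17 in YAPKO1 (limma adjusted p = 0.000504 and 0.000152).

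Of the 8 genes 1 was higher and 4 lower than parental in YAPKO2, against 20% and 17.8% of all genes, and 2 were higher and 4 lower in YAPKO1, against 14.8% and 12.4%. S100A10 and ANXA1, the chosen genes, are among the lower ones of both lines. Groups without overlap made up 57.8% of all genes for YAPKO2 and 43.1% for YAPKO1. The others that passed were S100A11 in YAPKO2 (-0.56 ± 0.17, limma adjusted p = 0.0182) and, in YAPKO1, ANXA5 (-0.60 ± 0.12, limma adjusted p = 0.00163) and ANXA4 (0.67 ± 0.16, limma adjusted p = 0.00521). The S100A11 call was lost without YAPKO2 replicate 1, parental replicate 1 or parental replicate 3, with changes of -0.45, -0.53 and -0.54. The comparisons with parental cells and with sgCON share the DMSO libraries of the knockout lines.

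Ordered by mean level, the genes differed in which line stood lowest. ANXA1 was lowest in the 2 YAPKO2 groups, followed upward by YAPKO1 with trametinib, YAPKO1 with DMSO, sgCON with trametinib, sgCON with DMSO and parental cells. Neighbours did not overlap except among the lowest 3 groups. S100A10 had the same order of lines and media above YAPKO2, with overlap between the YAPKO2 groups and between sgCON with DMSO and parental cells. ANXA6 was highest in the knockout lines in both media, which overlapped, then in sgCON, with parental cells lowest and apart. S100A4 was highest in parental cells, and S100A11 in sgCON with DMSO. ANXA5 neighbours all overlapped.

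The genes whose pattern over the 21 libraries was most like that of ANXA1 were TCIM, C1QTNF1 and SEMA3C, with a Pearson r of 0.986, 0.982 and 0.980. For S100A10 they were CAVIN2, MOXD1 and C1QTNF1, at 0.983, 0.979 and 0.973. C1QTNF1 was on both lists. For ANXA6 they were NIPSNAP1, EIF3D and EIF3K, at 0.975, 0.974 and 0.974. S100A11 was most like PACSIN3 (0.932), S100A4 most like CTNNB1 (0.912), ANXA5 most like ACO1 (0.932), S100A13 most like SUMO3 (0.879) and ANXA4 most like PDCD6 (0.808). These are descriptions over libraries that share lines, media and the GC trend.

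Other annexins and S100 genes were mostly silent. Of 9 other annexins on the list 2 were tested, ANXA7 and ANXA11, and limma called 0 of them (0 at an unadjusted p under 0.05) in either line under trametinib against sgCON or in sgCON with the drug. ANXA7 ranged over 35.1 to 46.4 FPKM and ANXA11 over 18 to 44.5 in all libraries. Of 15 other S100 genes 4 were tested, S100A2, S100A3, S100A16 and S100B, and S100A16 was the abundant one. S100A16 had 6.13, 8.33 and 3.19 FPKM in YAPKO2 and 20.3, 15 and 19.6 in YAPKO1, against 19.4, 14.4 and 17.4 in sgCON, all with trametinib. It fell by 1.54 ± 0.25 in YAPKO2 (limma adjusted p = 0.000134). In sgCON the drug lowered it by 1.40 ± 0.25 (limma adjusted p = 0.00205), against 45.1, 45.7 and 46.1 FPKM with DMSO. S100B, a glial marker, was low and was at -1.30 ± 0.31 in YAPKO2 and -1.04 ± 0.31 in YAPKO1 (limma adjusted p = 0.00381 and 0.0327), while S100A3 was at 0.87 ± 0.28 in YAPKO1 (limma adjusted p = 0.0461). S100A3 was also low, at 0.668, 1.12 and 0.994 FPKM in YAPKO1 against 0, 0.431 and 0.499 in sgCON. Of the 4 tested, 2 fell in YAPKO2, against 18.6% of all genes. In YAPKO1 1 rose and 1 fell, against 7.81% and 7.18%. In sgCON the drug lowered 2, against 2.94%.

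Known binding partners and membrane repair genes were listed next, 24 in all, of which 17 were tested. Under trametinib 4 rose and 6 fell in YAPKO2, against 17.7% and 18.6% of all genes, and in YAPKO1 2 fell and 0 rose (2 rose at an unadjusted p under 0.05), against 7.18% and 7.81%. The median change was -0.25 and -0.11, with -0.02 and -0.00 for all genes. AHNAK, the very large scaffold that binds the S100A10 complex, had 11.8, 16.8 and 14 FPKM in YAPKO2, against 28.3, 30.2 and 26.8 in sgCON. It fell by 0.99 ± 0.13 (limma adjusted p = 1.53e-05), without overlap. PLA2G4A, the cytosolic phospholipase A2, fell by 1.02 ± 0.32 in YAPKO2 (limma adjusted p = 0.0199). SYT1, a synaptic vesicle calcium sensor, and CAPN1, a calpain, rose by 1.03 ± 0.22 and 0.98 ± 0.24 (limma adjusted p = 0.00160 and 0.00478). The YAPKO2 libraries of these genes spread widely. PLA2G4A had 2.62, 1.17 and 5.22 FPKM there, against 5.38, 6.02 and 6.04 in sgCON. SYT1 had 69.1, 47.3 and 99.4, against 33.0, 38.6 and 29.1. CAPN1 had 52.2, 66.3 and 30.4, against 25.2, 19.7 and 26.6. The GC trend of these YAPKO2 libraries was 0.705, 1.32 and -0.248, and its part was not tested. In YAPKO1 the falls were AHNAK2 at -0.60 ± 0.18 and CAPN2 at -0.24 ± 0.08 (limma adjusted p = 0.0367 and 0.0436).

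In sgCON the drug itself raised 1 and lowered 2 of the 17 partners, against 2.28% and 2.94% of all genes. DLC1, which binds S100A10, rose by 0.74 ± 0.13 (limma adjusted p = 0.00146). MYOF, a membrane repair protein, and CAPN2 fell by 0.79 ± 0.22 and 0.33 ± 0.08 (limma adjusted p = 0.0414 and 0.0164). MYOF was low in sgCON, at 0.114 to 0.307 FPKM with trametinib and 0.544 to 1.05 with DMSO. In DMSO 2 of the 17 partners were higher and 6 lower in YAPKO2 than in sgCON, against 14.1% and 13.1% of all genes. In YAPKO1 0 were higher and 4 lower, against 6.18% and 5.81%. AHNAK2 was at -1.48 ± 0.18 in YAPKO2 and -1.69 ± 0.18 in YAPKO1, with limma adjusted p = 1.44e-05 and 7.31e-06. Its levels were low, at 0.302 to 0.390 FPKM in YAPKO2 and 0.202 to 0.233 in YAPKO1, against 1.69 to 1.93 in sgCON. The gene lists were chosen with earlier results of these data known, so these p-values carry that limit.

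The plasminogen system, which S100A10 with annexin A2 is known to localise, had 12 genes on the list, of which 7 were tested. Under trametinib 1 rose and 4 fell in YAPKO2, against 17.7% and 18.6% of all genes, and 1 rose and 3 fell in YAPKO1, against 7.81% and 7.18%. The medians were -0.70 and -0.24, with -0.02 and -0.00 for all genes. PLAT, tissue plasminogen activator, had 3.81, 3.38 and 2.38 FPKM in YAPKO2, against 9.37, 12.9 and 9.99 in sgCON, and fell by 1.62 ± 0.17 (limma adjusted p = 1.80e-06). PLAUR, the urokinase receptor, had 15, 11.3 and 13.6 FPKM in YAPKO2 and 20.2, 18.8 and 21.6 in YAPKO1, against 28.4, 31.5 and 28.4 in sgCON. It fell by 1.12 ± 0.12 in YAPKO2 and 0.53 ± 0.12 in YAPKO1 (limma adjusted p = 1.12e-06 and 0.00458). SERPINE2, an inhibitor of serine proteases, fell in YAPKO2 by 0.70 ± 0.13 (limma adjusted p = 0.000427). In YAPKO1 CTSB, a cathepsin, rose by 0.72 ± 0.15 and PLGRKT, a plasminogen receptor, fell by 0.50 ± 0.16 (limma adjusted p = 0.00329 and 0.0456). PLGRKT went the other way in YAPKO2, at 9.11, 8.68 and 8.97 FPKM against 7.74, 4.90 and 6.05 in sgCON. In sgCON trametinib lowered 2 of the 7, against 2.94% of all genes. These were PLAT by 0.69 ± 0.17 and SERPINE2 by 0.57 ± 0.13 (limma adjusted p = 0.0259 and 0.0126).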

How the data were processed

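The authors deposited FPKM values for 57820 genes in 21 libraries of stranded total RNA depleted of ribosomal RNA, per the labels' protocols. Per the submitters' processing notes, STAR 2.4.2, RSEM 1.3.0 and the build hg19 were used. The calibrated table equals the other deposited table times 1 factor per library (0.927 to 1.07). FPKM hold no counts, so depth is unknown and no counting interval is given; steps among low values put relative depth at 0.768 to 1.67.

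Parental samples were matched to the columns headed only with DMSO. Libraries were scaled by median-of-ratios factors (0.930 to 1.11). The 16092 genes that reached 1 FPKM in 3 or more libraries were tested two-sided on log2(FPKM + 0.5) with limma 3.58.1 (R 4.3.3, eBayes with trend), with a mean for each of 7 groups and Benjamini-Hochberg adjusted p under 0.05. Transcript GC was known for 96.5% of these genes. The fit was tested on simulated data. GRCh38 positions come from GENCODE and promoters from RefSeq.

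The members, gene lists and tests were chosen with earlier results of these data known. All members were named, up to 4 genes per list with the largest change among those called, and the 3 genes of most like pattern. Some genes that the lists hold and their counts include are not reported here by name. The fit was repeated with a pseudocount of 0.1 or 1, unfiltered, unscaled, with quantile normalization, with only the groups compared, with a replicate block, with a GC correction, without each replicate and, added after seeing the data, without either of 2 sets of 3 libraries of high GC trend.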

Additional observations from a re-analysis of the deposited data

Results flagged for a closer look

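Differences between the 2 knockout lines, and between a knockout line and sgCON in their drug response, passed a test of the difference itself in 6 cases. With DMSO, YAPKO2 lay above YAPKO1 in ANXA5 (0.57 on the log2 scale). With trametinib it lay below YAPKO1 in S100A10 (-1.64), S100A4 (-0.76) and S100A11 (-0.57) and above it in ANXA5 (0.39). The ANXA5 difference under trametinib was lost without YAPKO2 replicate 1 or 2, or without any 1 of the 3 YAPKO1 libraries. That of S100A11 was lost without YAPKO2 replicate 1 or 3, or YAPKO1 replicate 1 or 3. The drug response of ANXA1 in YAPKO2 differed from that in sgCON by 1.99, and the YAPKO2 libraries were at 0 to 0.190 FPKM in both media. No fall could be measured at such levels, so this difference restates the fall in sgCON and shows no altered response. With a pseudocount of 0.1 it was 1.68 and did not pass. S100A10 and ANXA1 were chosen on DMSO libraries of these knockout lines, so their cases are not independent of that choice. Groups of 3 were not tested for single libraries that stand apart.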

How the results depend on the processing

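Over 112 changes of single genes and 2000 alternative values, 1791 kept their direction and their side of the threshold, 82 lost the threshold, 64 gained it and 63 turned sign. The 63 belong to 19 changes, and 0 of them passed the threshold in either fit. The number of annexin and S100 genes called moved by over 1.5 times in these cases. With only the groups compared it was 5 in place of 3 for trametinib in sgCON, 0 in place of 3 in YAPKO1, 1 in place of 2 in YAPKO2, and 1 in place of 3 (DMSO) and of 4 (trametinib) for YAPKO2 over YAPKO1. For the drug response of YAPKO2 over that of sgCON it was 0 with a pseudocount of 0.1 and 2 with the GC correction, in place of 1. Without the 3 libraries of strongest GC trend it was 5 in place of 3 for trametinib in sgCON and 4 in place of 2 in YAPKO2. Without a filter it was 2 in place of 4 for sgCON over parental and 2 in place of 4 for YAPKO2 over YAPKO1 with trametinib. Leaving out 1 library gave 2 to 3 in both of those. The cause was not tested.

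Signs turned as follows, where the 3 strongest are YAPKO2 trametinib replicates 1 and 2 and YAPKO1 DMSO replicate 3, and the spread set is YAPKO2 trametinib replicate 2, YAPKO2 DMSO replicate 2 and YAPKO1 DMSO replicate 3. For YAPKO2 over sgCON with trametinib, S100A4 (0.05) was -0.0007 unscaled, -0.081 with the GC correction (with or without the block), -0.0090 without the spread set, -0.13 without the 3 strongest and -0.013 to 0.14 without 1 library. S100A13 (0.18) was -0.0095 with the GC correction and -0.038 without the 3 strongest, and ANXA5 (0.09) was -0.073 without the spread set, -0.16 without the 3 strongest and -0.073 to 0.21 without 1 library. With DMSO, ANXA5 (0.03) was -0.047 without the spread set and -0.047 to 0.10 without 1 library. For trametinib in YAPKO2, ANXA6 (0.27) was -0.16 and S100A10 (0.01) -0.15 without the 3 strongest, and S100A10 was -0.15 to 0.17 without 1 library. In YAPKO1, ANXA5 (-0.06) was 0.028 with quantile normalization, 0.017 without either set and -0.14 to 0.017 without 1 library, and S100A13 (-0.10) was 0.029 without either set and -0.22 to 0.029 without 1 library. In sgCON, ANXA6 (-0.00) was 0.042 unscaled, 0.055 with quantile normalization and -0.020 to 0.0063 without 1 library. For the drug response over that of sgCON, ANXA1 in YAPKO1 (0.34) was -0.85 with a pseudocount of 0.1, -0.080 without either set and -0.080 to 0.69 without 1 library. In YAPKO2, ANXA5 (0.06) was -0.025 and S100A11 (0.05) -0.065 without the spread set, and ANXA5 was -0.18, ANXA6 (0.28) -0.16 and S100A11 -0.34 without the 3 strongest. Without 1 library these were -0.098 to 0.19 for ANXA5, -0.17 to 0.24 for S100A11 and -0.15 to 0.046 for S100A13 (-0.07). Over parental, ANXA5 was 0.012 in sgCON (-0.06) and 0.15 in YAPKO2 (-0.03) with the GC correction, and -0.11 to 0.046 in YAPKO2 without 1 library. S100A13 in YAPKO1 over parental (0.01) was -0.025 with quantile normalization, -0.082 with the GC correction, -0.12 without either set and -0.12 to 0.13 without 1 library. For YAPKO2 over YAPKO1 with trametinib, ANXA6 (-0.11) was -0.33 to 0.11 and ANXA4 (0.09) -0.024 to 0.23 without 1 library.

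Counts over all genes moved too, given here with their range over the other alternatives and then without 1 library. For trametinib they were 3231 (693 to 4389; 2271 to 4551) in YAPKO2, 1263 (197 to 3910; 744 to 1614) in YAPKO1 and 840 (698 to 2392; 483 to 546) in sgCON. For YAPKO2 over sgCON they were 5842 (2576 to 6171; 4228 to 7931) with trametinib and 4365 (3810 to 6890; 2575 to 3848) with DMSO. For YAPKO1 over sgCON they were 2412 (2036 to 4888; 1421 to 2147) and 1929 (739 to 3040; 1231 to 2132). For YAPKO2 over YAPKO1 they were 2280 (286 to 3257; 1564 to 3967) and 1121 (302 to 3779; 763 to 1408). The response difference from sgCON had 777 genes (443 to 2778; 509 to 1160) in YAPKO2 and 40 (9 to 135; 12 to 39) in YAPKO1. Over parental the counts were 6086 (5609 to 8163; 4180 to 5656) in YAPKO2, 4386 (2729 to 5385; 3052 to 4590) in YAPKO1 and 2552 (2294 to 4684; 1696 to 1862) in sgCON.

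Libraries with the same replicate number did not consistently deviate together (r of -0.326 to 0.361, with every pair over 0.1 in 0 of 12 comparisons). The highest r was that of YAPKO2 replicate 2 between the media. Such values cannot show whether these libraries shared a culture or batch. The main fit held no replicate block. With the replicate block 2 in place of 4 genes were called for sgCON over parental, 4 in place of 3 for trametinib in sgCON, and 2 in place of 3 for trametinib in YAPKO1. Without counts, how far depth limits the values near 0 is unknown.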

Other observations

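2 genes outside the annexin and S100 lists, DBH and DCN, are named here after their values were seen, so their p-values are not independent of that choice. DBH was low, at 0 to 7.19 FPKM over all libraries with a median of 0.591, so its change depends on the pseudocount. DBH, which makes noradrenaline, rose under trametinib by 2.55 ± 0.23 in YAPKO2 and 2.95 ± 0.23 in YAPKO1 over sgCON (limma adjusted p = 2.50e-07 and 1.37e-07). DCN, the matrix proteoglycan decorin and one of the fibroblast list, moved in opposite directions in the 2 lines, by 1.99 ± 0.16 in YAPKO2 and -2.69 ± 0.16 in YAPKO1 (limma adjusted p = 3.53e-08 and 2.91e-09). S100B is on both the S100 list and the Schwann cell list.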
